A study of Ovis aries with 14 samples.

Results

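The genes described here make, carry, read and break down retinoic acid: the 3 retinaldehyde dehydrogenases ALDH1A1, ALDH1A2 and ALDH1A3, the retinoic acid hydroxylase CYP26B1, the retinol carrier RBP4 and its cell surface receptor STRA6, the cytoplasmic binding proteins CRABP1 and CRABP2, and the nuclear receptors RARA and RARB. They were taken by gene name from 3 deposited tables, and all 10 were measured in each table, among 16513 genes in the fetal table, 15863 in the first adult table and 16074 in the second. RNA came from whole ovaries of wild type Suffolk sheep, which were 3 control and 3 testosterone fetuses at day 90 of gestation and 4 control and 4 testosterone adults at year 2. The testosterone animals were offspring of ewes injected in the muscle with T propionate (testosterone propionate) in cottonseed oil, 2 times a week from day 30 to day 90 of gestation. The fetuses were therefore sampled at the end of the exposure and the adults long after it. The labels do not say what the control ewes received, how the samples relate to mothers or litters, or at which stage of the ovarian cycle the adults were sampled. The p-values below thus measure only the spread between these samples, which may be partly technical.

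Retinoic acid is made from vitamin A in 2 steps, in which retinol is oxidised reversibly to retinaldehyde and the ALDH1A enzymes then oxidise retinaldehyde irreversibly to retinoic acid. The acid enters the nucleus, where retinoic acid receptors paired with retinoid X receptors switch target genes, and enzymes of the CYP26 family remove it. In the fetal ovary retinoic acid is known for promoting the entry of germ cells into meiosis through STRA8, and CYP26B1 is known for holding this back in the testis. In the adult ovary, retinoid enzymes and carriers are known from follicle and luteal cells.

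Each library held 22.6 to 33.4 M recovered reads, and the members had at least 438 reads in every fetal library and at least 67 in every adult library. The 14 libraries were alike within the fetal age (correlation of log2 levels 0.971 to 0.985) and less so among adults (0.838 to 0.975). Adult control 6, testosterone 4 and testosterone 7 stood apart. OXT, the oxytocin gene that luteal cells of ruminants transcribe strongly, had 94884, 110586 and 61704 normalized counts there and 22.3 to 80.2 in the other 5 adults. The summed luteal markers (6 of 6 measured; sums are on the scale of all 14 libraries) were 225209 to 260564 in those 3 libraries and 5374 to 11898 in the rest. Adult control 4 stood apart in another way, with 278273 normalized counts of the smooth muscle myosin MYH11 against 21146 to 111582 in the other adults, and 95832 of desmin (DES) against 2153 to 8133. No marker of the 10 cell type lists that could be summed was at 0 in a whole group. In bulk tissue, fewer cells of a type and less RNA per cell cannot be told apart.

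**Figure D1:**
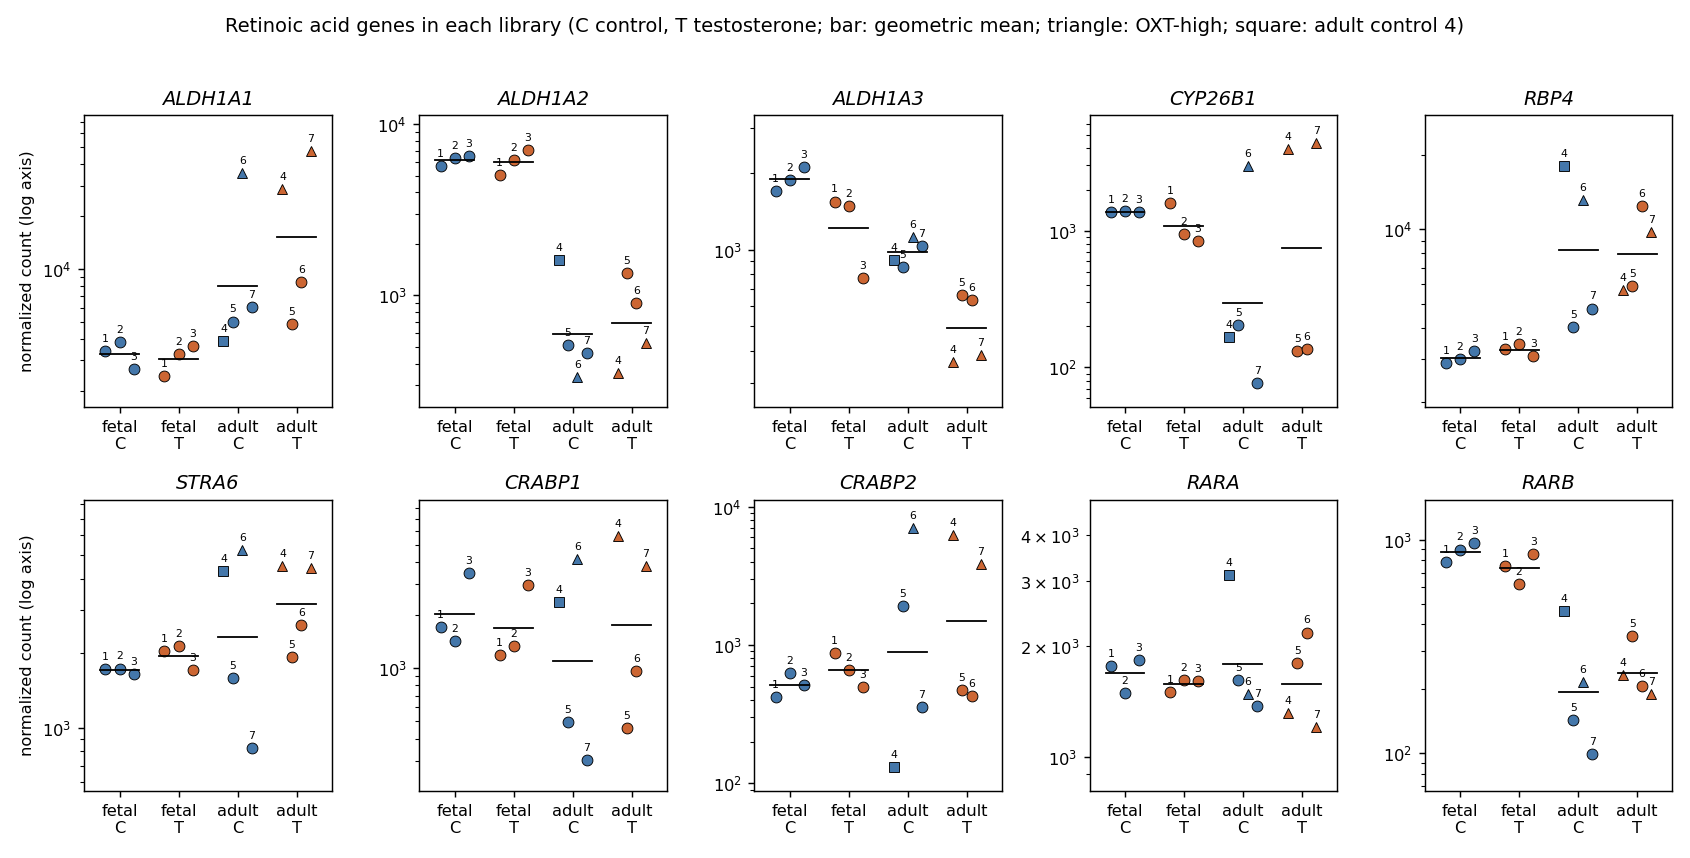
Normalized counts of the 10 genes in each of the 14 libraries, on a log axis, with all libraries scaled together; numbers name the libraries, bars are geometric means, triangles mark the 3 adult libraries with high OXT and squares mark adult control 4. Fetal points lie close together, adult points of ALDH1A1, CYP26B1, CRABP1 and CRABP2 spread widely, and in ALDH1A3 all testosterone points lie below all control points at each age.

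The first question was whether prenatal testosterone was followed by other levels of these genes. None of the 10 passed the threshold (adjusted p under 0.05 over all genes tested) in the fetuses, in either adult table, or in all 8 adults joined, with limma, DESeq2 or edgeR. DESeq2 gave no p for CYP26B1 in either adult table, nor for CRABP2 in the second. The background was low as well. In the fetuses, 0.0182% of all genes passed with limma, 1.58% with DESeq2 and 0.0242% with edgeR, and in the joined adults 0.0127%, 0.0444% and 0.00635% did. In the first and second adult table limma passed 0.00631% and 0.00623%, DESeq2 0.0252% and 0.0311%, and edgeR 0% of each. At an unadjusted p under 0.05, 1 of the 10 members passed in each of these 4 comparisons, ALDH1A3 each time, beside 9.76% of all fetal genes, 0.637% and 0.486% of genes in the 2 adult tables and 0.806% in the joined adults. The adult tables share 4 libraries, so they are not independent of each other or of the joined adults.

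ALDH1A3 makes retinoic acid from retinaldehyde and was the member whose testosterone libraries all lay below the controls at each age. In the fetuses, controls had 1901, 2098 and 2338 normalized counts, and testosterone libraries had 1721, 1674 and 858. The 2 groups did not overlap, as was the case for 16.3% of all fetal genes, and for 7.46% with testosterone lower. Testosterone 3 was far below the other 2 testosterone libraries, which were closer to the controls than to it. The log2 difference, testosterone minus control, was -0.64 (SE 0.25, 95% interval -1.21 to -0.06, limma adjusted p = 0.470, n = 3 per group). Without testosterone 3 the difference was -0.31. DESeq2 and edgeR gave adjusted p of 0.295 and 0.490, and the authors' deposited table lists a log2 change of -0.58 with an adjusted p of 0.276.

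In the adults, ALDH1A3 had 832, 786, 1008 and 938 normalized counts in controls 4 to 7 and 327, 612, 579 and 348 in testosterone 4 to 7. Every testosterone library was again below every control, as it was for 0.374% of all genes in the joined adults. The means were 891 ± 101 and 467 ± 150 (SD, n = 4 each), a log2 difference of -0.98 (SE 0.26, 95% interval -1.57 to -0.40, limma unadjusted p = 0.0042, adjusted p = 0.9999). DESeq2 gave an adjusted p of 0.754. Leaving out each adult in turn gave -1.13 to -0.83, and the 2 adult tables alone gave -0.84 and -0.89.

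Within the 3 libraries with high OXT, control 6 had 1008 normalized counts of ALDH1A3, and testosterone 4 and 7 had 327 and 348. Within the other 5 adults, the 3 controls had 786 to 938 and the 2 testosterone libraries 579 and 612. The testosterone values were thus lower in each set, and the separation was wider in the libraries with high OXT, where control 6 is the only control. This division was made after the data were seen. Without those 3 libraries the log2 difference was -0.51 (SE 0.20, 95% interval -1.03 to -0.0012), and with the mean log2 level of the luteal list as a covariate it was -0.91 (SE 0.23). ALDH1A3 did not pass the threshold in either of these fits. None of the 10 marker lists had adult groups that did not overlap. In the fetuses 3 of the 10 lists did not overlap, beside 16.3% of single genes. Summed smooth muscle markers were 27925 to 37531 in controls and 41281 to 64620 after testosterone. Surface epithelium had 3921 to 4377 and 4676 to 5594, and macrophage 2135 to 2522 and 1832 to 2094. The part of cell types in the ALDH1A3 values was not tested at either age.

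ALDH1A3 was the 1 gene of 15163 measured at both ages (0.0066%) with testosterone below control and no overlap in the fetuses and in the 8 adults, and 1 of 2 genes (0.0132%) with an unadjusted limma p under 0.05 and a lower level at both ages. Testosterone was lower without overlap for 7.46% of all fetal genes and 0.374% of all genes in the joined adults. An unadjusted limma p under 0.05, in either direction, was seen for 9.76% and 0.806%. With these shares, unrelated ages would by themselves leave a few genes meeting each rule. The counts of 1 and 2 are thus not read as a link between the ages. Both rules take only the direction that ALDH1A3 has, and no test of the counts was made. Neither age gave ALDH1A3 an adjusted p under the threshold. The difference between the adult and the fetal effect was -0.35 on the log2 scale (SE 0.38, 95% interval -1.18 to 0.48, limma adjusted p = 0.9999), in a test that 0.00659% of all genes passed.

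ALDH1A1 and ALDH1A2, the other 2 enzymes of this step, showed no such separation. ALDH1A2 had 6390, 7029 and 7206 normalized counts in fetal controls and 5608, 6983 and 7780 after testosterone (log2 difference -0.03, SE 0.12, 95% interval -0.31 to 0.26). ALDH1A1 had 3788, 4248 and 2979 in fetal controls and 2712, 3658 and 4035 after testosterone (-0.09, SE 0.18, 95% interval -0.49 to 0.32). For both genes, the fetal groups overlapped, and their intervals leave out a change of 1 log2 unit in either direction.

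CYP26B1, which breaks retinoic acid down, was nearly constant among fetal controls, at 1530, 1550 and 1517 normalized counts, and spread among testosterone fetuses, at 1778, 1066 and 939. Testosterone 1 thus lay above all controls and the other 2 below them. The log2 difference was -0.34 (SE 0.21, 95% interval -0.83 to 0.15, limma adjusted p = 0.636).

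Of the carriers and binding proteins, RBP4, which carries retinol in blood, had 3218, 3352 and 3574 normalized counts in fetal controls and 3657, 3888 and 3411 after testosterone (log2 difference 0.11, SE 0.09). STRA6, the receptor that takes retinol up from RBP4, had 1938, 1933 and 1829 in controls and 2271, 2408 and 1897 after testosterone (0.20, SE 0.11, limma adjusted p = 0.585). In both, 2 of 3 testosterone libraries were above all controls and the third was among them.

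CRABP1 binds retinoic acid in the cytoplasm and differed more between libraries of a group than between groups. Its normalized counts were 1919, 1597 and 3823 in fetal controls and 1324, 1510 and 3290 after testosterone (log2 difference -0.28, SE 0.40). The library numbered 3 was the highest of each group. CRABP2, known for handing retinoic acid to its nuclear receptor, had 468, 699 and 571 in controls and 969, 747 and 553 after testosterone (0.37, SE 0.22, limma adjusted p = 0.626), with 2 of 3 testosterone libraries above all controls.

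The receptors were close between the fetal groups. RARA had 1971, 1658 and 2040 normalized counts in controls and 1672, 1818 and 1785 after testosterone (log2 difference -0.10, SE 0.10). RARB, whose gene is itself a classic target of retinoic acid receptors, had 877, 1001 and 1063 in controls and 838, 697 and 949 after testosterone (-0.25, SE 0.14, 95% interval -0.57 to 0.07, limma adjusted p = 0.598). Both pairs of groups overlapped. Over the 10 members, 3 fetal log2 differences were positive and 7 negative, with a median of -0.09, beside a median of -0.02 over all fetal genes, of which 46.6% were positive.

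**Figure D2:**
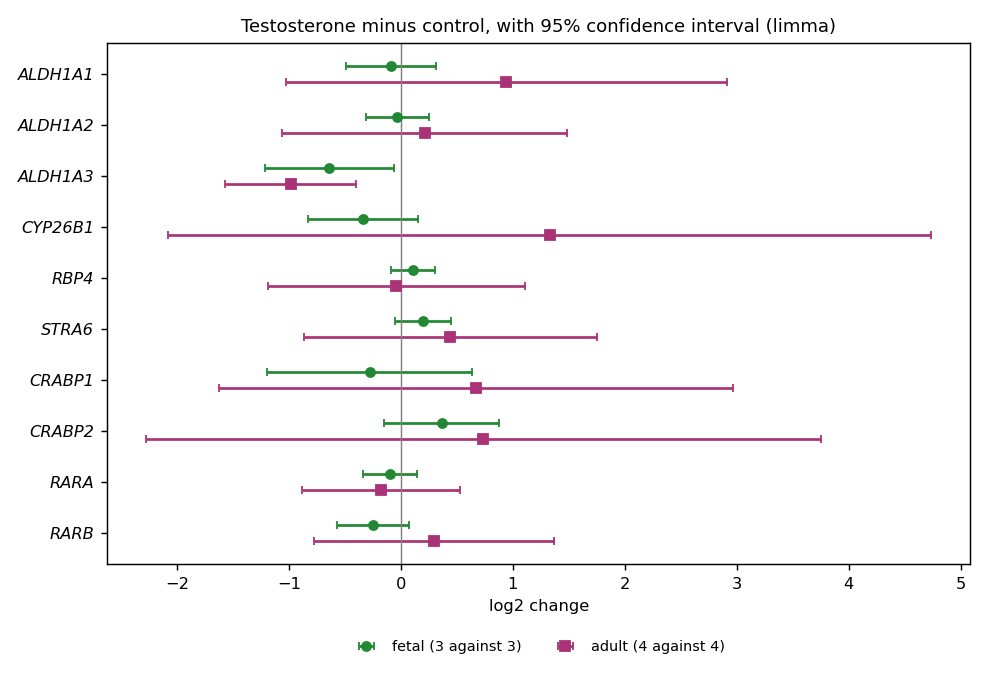
Log2 difference, testosterone minus control, of each gene with its 95% confidence interval from limma, in the fetuses (circles, 3 against 3) and the 8 adults (squares, 4 against 4). The intervals of ALDH1A3 lie below 0 at both ages without correction for the number of genes, all others cross 0, and adult intervals are the wider ones.

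In the adults the other 9 members did not differ between control and testosterone beyond the spread of the libraries, and that spread was large. Log2 differences over the 8 adults ran from -0.18 (RARA, SE 0.31) to 1.33 (CYP26B1, SE 1.51), with 7 of 10 members positive and a median of 0.37, beside a median of -0.01 over all genes. Without the 3 libraries with high OXT, CYP26B1 had -0.033 (SE 0.51), RBP4 0.30 (SE 0.73), CRABP1 -0.080 (SE 0.92), CRABP2 0.018 (SE 1.10) and RARA 0.066 (SE 0.39). The sign of RBP4, CRABP1, CYP26B1 and RARA was thus the opposite of that over all 8. The testosterone group holds 2 of these 3 libraries and the control group 1.

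Several members followed that division of the adult ovaries, described here library by library with no test. CYP26B1 had 2686, 3596 and 3940 normalized counts in control 6, testosterone 4 and testosterone 7, and 70.3 to 186 in the other 5 adults. ALDH1A1 had 32076, 25936 and 42898 in these libraries and 3503 to 7773 in the others. CRABP2 had 6282, 5607 and 3455 there, and 1760 in control 5 and 119 to 438 in the remaining 4. Each of these genes was highest in the 3 libraries with high OXT, whatever the treatment. Besides the luteal list, the summed macrophage markers (5 of 5 measured) were high there, at 16343 to 19465 against 1706 to 4373 in the other 5 adults, and their part in these levels was not tested.

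CRABP1 and STRA6 were high in these 3 libraries and also in control 4. CRABP1 had 3712, 5057 and 3415 normalized counts in control 6, testosterone 4 and testosterone 7, 2155 in control 4 and 275 to 882 in the other 4. STRA6 had 4696, 4062 and 3992 in the 3, 3928 in control 4 and 754 to 2392 in the others. The summed stroma markers (6 of 6 measured) had the same division, at 1681730 in control 4, 768686, 1036040 and 1098320 in control 6, testosterone 4 and testosterone 7, and 328098 to 563594 in the other 4. Their part in these levels was not tested. RARRES1, chosen after its values were seen and named for its response to retinoid, had 7250, 8608 and 8801 in the 3 libraries and 69.3 to 523 in the others. It is 1 of 16 listed targets tested in the 8 adults, and how many of the others share this division was not counted. RARB, also a target, was highest in control 4 and had a Pearson r of log2 levels of 0.025 with CYP26B1. A retinoid response in these libraries was not tested.

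Control 4 had the highest adult level of 4 other members. ALDH1A2 had 1471 normalized counts in control 4, 1248 and 831 in testosterone 5 and 6, and 302 to 478 in the other 5. RARA had 2844 in control 4 and 1092 to 1996 elsewhere, RARB had 422 and 90.3 to 326, and RBP4 had 16437 and 3699 to 11783. Chosen after their values were seen, DHRS3, which turns retinaldehyde back into retinol, had 18463 in control 4 and 2268 to 5785 elsewhere, and the receptor RARG 1373 and 306 to 558. Beside the smooth muscle genes given above, control 4 had the highest adult sum of endothelial markers (7 of 7 measured), 105877 against 14195 to 54309, the highest stroma sum, and the lowest granulosa sum (7 of 11 measured), 962 against 1963 to 23424. The part of these cell types in the 4 members was not tested.

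**Figure D3:**
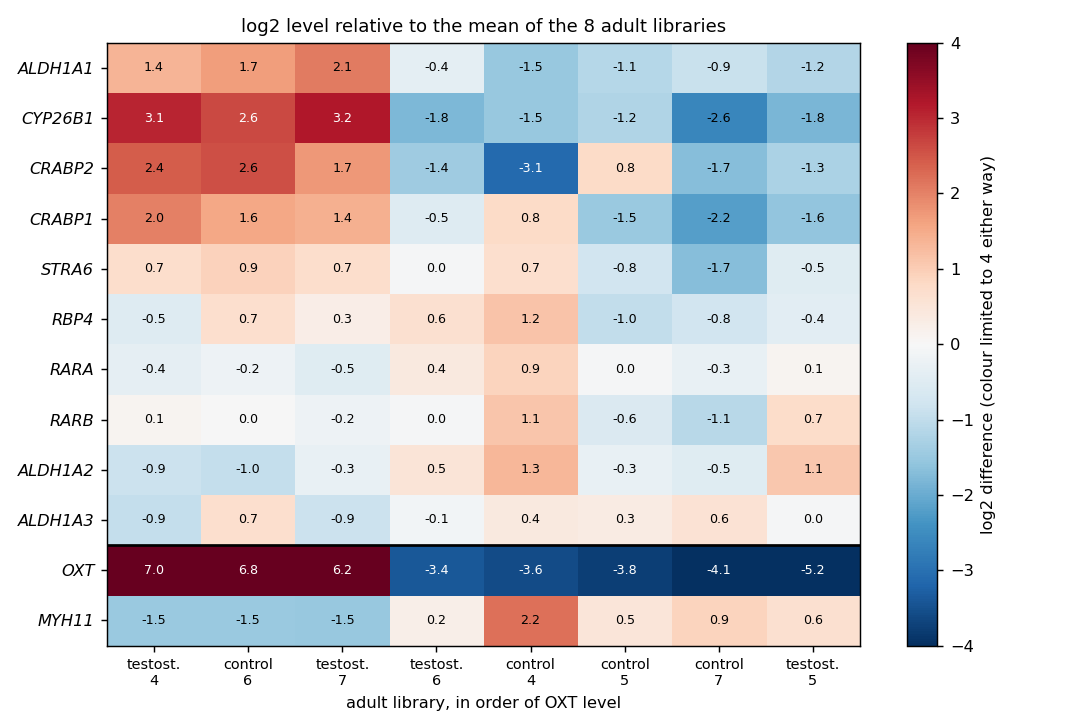
Log2 level of the 10 genes in each adult library relative to the mean of the 8 adults, with OXT and MYH11 below the line and libraries ordered by OXT. Columns 1 to 3 (testosterone 4, control 6, testosterone 7) are high in ALDH1A1, CYP26B1, CRABP1 and CRABP2, and control 4 is high in MYH11, ALDH1A2, RARA, RARB and RBP4.

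Over the 8 adult libraries the genes of most similar pattern, among 10936 named genes, were MCOLN1, HSD17B11 and MGST1 for ALDH1A1 (Pearson r of log2 levels 0.985 to 0.987), TRH, C6orf89 and MSR1 for CYP26B1 (0.990 to 0.991), and, among those for CRABP2, CDSN and PLIN2 (0.993 and 0.990). CD74, HLA-DRA and RNF130 were closest to STRA6 (0.979 to 0.996), and AKR1A1, SHBG and AP2A2 to CRABP1 (0.990 to 0.991). CD74 and HLA-DRA belong to antigen presentation by class II molecules, and MSR1 is a scavenger receptor of macrophages. For ALDH1A3 they were PPFIA1, GTPBP6 and RPL10A (0.897 to 0.975), for ALDH1A2 TOR1AIP1, ZSWIM3 and MATN2 (0.956 to 0.980), for RBP4 WNT2, STS and SMIM10L1 (0.945 to 0.952), for RARA ZBED1, ZNF335 and WNT6 (0.991 to 0.993), and for RARB TMOD3, TSHZ3 and CLMN (0.979 to 0.993). Between members, ALDH1A1 and CYP26B1 had r of 0.942 and STRA6 and CRABP1 0.942, while ALDH1A2 had 0.835 with RARA and -0.820 with CRABP2. These values describe 8 libraries that share the divisions above, with no test. Over the 6 fetal libraries and 11226 genes, the closest to ALDH1A3 were GNMT, COL13A1 and MRI1 (0.982 to 0.993), and CYP26B1 had r of 0.761 with ALDH1A3.

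The second comparison was between ages, adult controls against fetal controls, with all 14 libraries scaled together and in the same fit. The testosterone libraries thus enter the spread behind its p-values. Here 4 of 10 members passed with limma, beside 28.3% of all genes (13.3% higher and 14.9% lower in adults), so calls were common throughout and the count is not particular to these genes. Without fetal control 2 or fetal control 3, 2 members passed, beside 16.5% or 17.6% of all genes. With the control libraries alone, 3 members passed, beside 20.9% of all genes. ALDH1A2, RARB and ALDH1A3 were lower in adults and RBP4 was higher. The ages were deposited in separate tables, and the labels do not say when samples were collected or libraries prepared. Age thus cannot be told apart from any difference in collection or library preparation. Of the 10 summed marker lists, 4 did not overlap between the ages, beside 40.5% of single genes. Germ cell markers (5 of 12 measured) were 11087 to 15676 in fetal controls and 539 to 1292 in adult controls, and mesonephric and rete tubule markers (3 of 7 measured) 1899 to 1975 and 925 to 1868. Smooth muscle markers were 27925 to 37531 and 65987 to 886263, and luteal markers 2787 to 3256 and 7390 to 244728. The part of these cell types in the age differences was not tested.

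ALDH1A2 had 5715, 6303 and 6494 normalized counts in fetal controls on this scale and 1615, 515, 336 and 458 in adult controls. Every adult was below every fetus, and groups that did not overlap were seen for 40.5% of all genes. The means fell from 6170 ± 406 (SD, n = 3) to 731 ± 594 (SD, n = 4), a log2 change of -3.36 (SE 0.49, limma adjusted p = 0.00037). In the testosterone libraries, which are in the same fit but not in this contrast, fetuses had 5037, 6199 and 7014 and adults 353 to 1350. Their log2 change was -3.12 (SE 0.49), with an error estimate shared by both contrasts.

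RARB had 785, 898 and 958 normalized counts in fetal controls and 463, 143, 215 and 99.0 in adult controls, a log2 change of -2.17 (SE 0.41, limma adjusted p = 0.0021). Among testosterone libraries it had 619 to 856 in fetuses and 189 to 352 in adults, a log2 change of -1.63 (SE 0.41). ALDH1A2 and RARB thus separated the ages without overlap in each treatment group, and both passed in the testosterone libraries (limma adjusted p = 0.00086 and 0.0134).

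ALDH1A3 had 1700, 1881 and 2107 normalized counts in fetal controls and 914, 858, 1120 and 1030 in adult controls, a log2 change of -0.95 (SE 0.27, limma adjusted p = 0.0203). Without fetal control 2 or fetal control 3 the adjusted p was 0.0640 or 0.0812, with a log2 change of -0.96 or -0.87. In the testosterone libraries the change was -1.30 (SE 0.27, limma adjusted p = 0.0050), from 774 to 1546 in fetuses to 362 to 662 in adults. Ordered by their control and testosterone libraries, levels were highest in fetal controls, then in fetal testosterone libraries, adult controls and adult testosterone libraries. Fetal testosterone and adult control values overlapped.

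RBP4 had 2878, 3006 and 3221 normalized counts in fetal controls and 18049, 4037, 13093 and 4790 in adult controls. All adults were above all fetuses, with a log2 change of 1.44 (SE 0.45, limma adjusted p = 0.0308). The call was lost without any 1 fetal control, adult control 4 or adult control 6 (limma adjusted p 0.0607 to 0.0869), with the control libraries alone (0.0868), and in the testosterone libraries (log2 change 1.29, 0.0566).

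CYP26B1 had 1369, 1390 and 1367 normalized counts in fetal controls and 166, 203, 2985 and 77.2 in adult controls 4 to 7. The adult values lay on both sides of the fetal ones, and the log2 difference of -2.20 (SE 1.35) did not pass (limma adjusted p = 0.243). With the 3 adults of high OXT left out, an alternative chosen after the data were seen, the log2 change was -3.31 (SE 0.35, limma adjusted p = 0.00015) and CYP26B1 passed. In that fit RBP4 was lost, and 4 members passed, beside 36.3% of all genes.

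ALDH1A1 had 2685 to 3809 normalized counts in fetal controls and 3847 to 35642 in adult controls. The groups did not overlap, but the change of 1.30 (SE 0.79) did not pass with limma (adjusted p = 0.236), while DESeq2, which passed 37.6% of all genes, gave 1.94 with an adjusted p of 0.0329. The log2 differences of STRA6 (0.45, SE 0.52), CRABP1 (-0.89, SE 0.95), CRABP2 (0.79, SE 1.20) and RARA (0.08, SE 0.27) did not pass (limma adjusted p 0.516 to 0.843), and their groups overlapped. RARA had the narrowest of these 4 intervals, from -0.50 to 0.67.

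**Figure D4:**
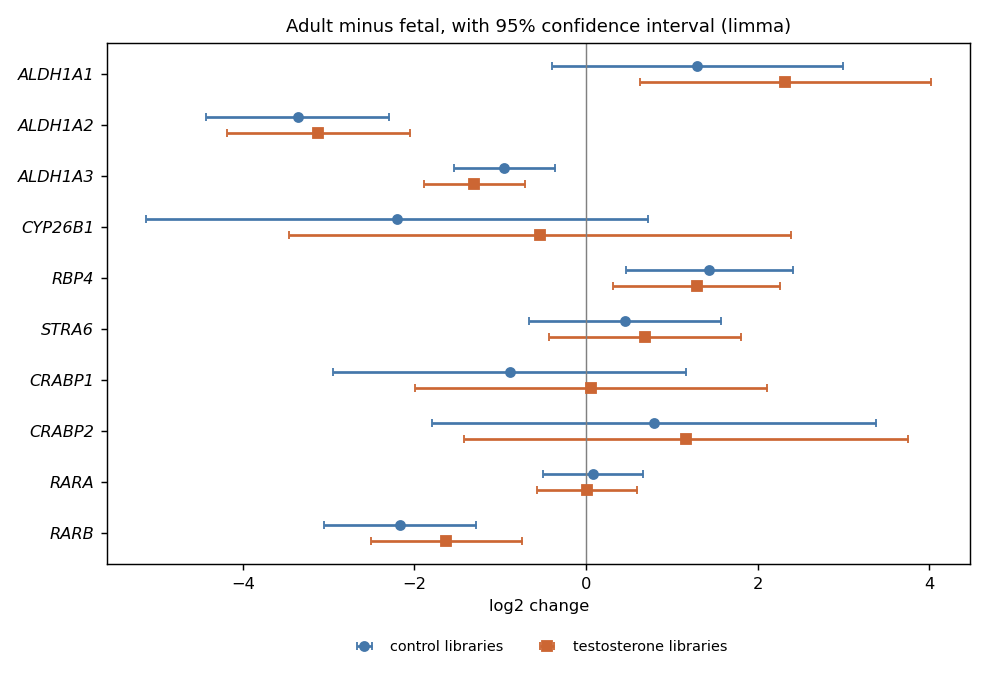
Log2 difference, adult minus fetal, of each gene with its 95% confidence interval from limma, in the control libraries (circles) and the testosterone libraries (squares). ALDH1A2, ALDH1A3 and RARB lie below 0 and RBP4 above 0 in both sets, and the intervals of CYP26B1, CRABP1 and CRABP2 are wide.

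The rest of the retinoid pathway was read from a list by role. Of 54 measured genes, 0 passed in the fetuses after testosterone with limma, DESeq2 or edgeR, and 4 had an unadjusted p under 0.05. Over the 54 genes, 24 differences were positive and 30 negative, with a median of -0.08. NCOA3, a coactivator of nuclear receptors, had 3208, 3192 and 2992 normalized counts in controls and 2347, 2788 and 2601 after testosterone (log2 difference -0.28, SE 0.09, limma adjusted p = 0.395). ZNF423, a zinc finger cofactor of retinoic acid receptors, had means of 947 ± 138 and 704 ± 68.7 (SD, n = 3 each), RAI1 had 3924 ± 376 and 3144 ± 335, and MEIS2, a homeobox gene known to respond to retinoic acid, had 502 ± 50.8 and 710 ± 184. These 4 are the pathway genes with an unadjusted p under 0.05, which 9.76% of all fetal genes had, and their groups did not overlap, as for 16.3% of all fetal genes.

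CYP26A1 and CYP26C1, the other members of the CYP26 family, were low in the fetal table, at 19.6 to 53.8 and 8.82 to 22.5 normalized counts, and neither is listed in the adult tables. Their log2 differences were -0.28 (SE 0.43) and -0.24 (SE 0.45). Of the genes with the smallest p in the remaining roles, BCO2, which cleaves carotenoids, had means of 323 and 230, ADH5 6831 and 7661, FABP5, a fatty acid carrier that also binds retinoic acid, 346 and 422, RXRG 16.3 and 23.6, and PPARD 1116 and 1040, in control and testosterone fetuses. None passed (limma adjusted p 0.537 to 0.725). STRA8, the meiotic target of retinoic acid, was chosen after its values were seen: it had 128, 275 and 49.0 in fetal controls and 159, 84.1 and 68.9 after testosterone, with groups that overlapped.

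In the adults, 0 of 48 pathway genes passed after testosterone with limma, DESeq2 or edgeR, and 0 had an unadjusted limma p under 0.05. Between ages, 12 of 48 passed, 7 higher and 5 lower in adults, a share of 25.0% beside the 28.3% of all genes. RDH10, which makes the retinaldehyde that embryos use, fell from 1529 ± 270 to 644 ± 463 normalized counts (log2 change -1.47, SE 0.39, limma adjusted p = 0.0139). RDH5, another retinol dehydrogenase, rose from 2428 ± 61.9 to 6836 ± 3257 (1.36, SE 0.41). REC8, a meiotic cohesin gene that responds to retinoic acid, fell from 589 ± 92.9 to 128 ± 61.9 (-2.28, SE 0.48), and NFKBIZ rose from 113 ± 21.0 to 494 ± 45.7 (2.13, SE 0.32). The coactivator NCOA1 fell from 2550 ± 146 to 1358 ± 229, and the corepressor TRIM24 fell from 1897 ± 326 to 1023 ± 143. RXRB, a partner of retinoic acid receptors, rose from 1664 ± 117 to 2111 ± 185 (limma adjusted p = 0.0423). These values are means ± SD, with n = 3 fetuses and 4 adults. When each of the 14 libraries was left out in turn, the call was lost in 10 fits for RXRB, 5 for RDH5 and 1 for RDH10. REC8, NFKBIZ, NCOA1 and TRIM24 kept theirs in all 14. The RDH10 groups overlapped.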

How the data were processed

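Whole-ovary RNA was sequenced as paired reads of 150 bases from 500 ng of RNA. Trimmomatic 0.36 and STAR 2.5.2b are named for trimming and alignment, per the submitters' processing notes. The counting program, build and annotation: not given in the sources used here. For each library the authors deposited a signal column, a DESeq2 normalized count (series text), with log2 fold changes and p-values. All values in every library were whole multiples of 1 step (within 0.01), so reads were recovered by dividing by it. The first adult table holds numbers 4, 5 and 6 of each group, and the second controls 4, 6 and 7 and testosterone 5, 6 and 7. Control 6 has 26.4 M reads in the first and 33.4 M in the second, and the larger set was used when all 8 adults, or all 14 libraries, were scaled together with DESeq2 size factors. The series text counts 3 adult controls and 4 treated adults, against 4 and 4 in the labels.

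Groups were compared mainly by limma 3.58.1 under R 4.3.3, using its trend option on log2(value + 1) and keeping genes whose mean was 10 or more, with Benjamini-Hochberg adjustment over all genes and a threshold of 0.05. All 10 members passed the filter in every fit. DESeq2 1.42.0 and edgeR 4.0.16 were run on recovered reads, and the scripts were tested on simulated data. The members and gene lists were chosen with earlier results of these data known. Named genes are all members, pathway genes past the threshold after testosterone (0) and, per role, the 2 of smallest p after testosterone and the 2 of largest change past the threshold between ages, and the 3 genes most like each member. Fetal genes of like pattern are given for ALDH1A3 only, and 2 other genes the rule names are not reported here. A planned search of promoters was not run, and no coordinates or sequences are given, since no table of the files' build was used here.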

Additional observations from a re-analysis of the deposited data

Results flagged for a closer look

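For each member, the 4 libraries of each adult group were checked for a library far from the rest. In 4 of these 20 checks 1 library was separated by a gap above 0.829 of the group's range. For values with a normal distribution, chance gives this in about 1 of 20 groups. These gaps were taken on linear counts. On the log2 scale the gaps are 0.797, 0.734, 0.718 and 0.798 for ALDH1A1, CYP26B1, ALDH1A2 and RARA, and 0 of the 20 checks are above the limit. The checks also share the same 8 libraries. All 4 are in adult controls. Control 6 had 32076 normalized counts of ALDH1A1, against 3503 to 5495 in the other 3 controls, and 2686 of CYP26B1 against 70.3 to 186. Control 4 had 1471 of ALDH1A2 against 302 to 472 and 2844 of RARA against 1254 to 1480. Control 6 is a library with high OXT and control 4 is the library with the most MYH11, as given in the report.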

How the results depend on the processing

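Of 1066 recomputed log2 changes of 52 results, 1006 kept their direction and their side of the threshold, and 26 changed sign. No member passed in a testosterone comparison, or in the difference between ages of its effect, under any alternative run, threshold 0.1 included. Between ages 4 members passed, with 2 to 4 when each library was left out (2 without fetal control 2 or 3, where the share of all genes passing was 16.5% and 17.6% in place of 28.3%). Sign changes on leaving out a library came with ranges spanning 0. In the fetuses these were -0.23 to 0.081 for ALDH1A1, -0.13 to 0.10 for ALDH1A2, -0.68 to 0.098 for CRABP1, -0.68 to 0.024 for CYP26A1 and -0.44 to 0.11 for CYP26C1. In the 8 adults they were -0.12 to 0.69 for ALDH1A2, -0.38 to 0.34 for RBP4, -0.055 to 0.82 for STRA6, -0.18 to 1.72 for CRABP2, -0.33 to 0.092 for RARA and -0.023 to 0.71 for RARB, and between ages -0.20 to 1.71 for CRABP2 and -0.18 to 0.21 for RARA. With the libraries of high OXT left out (chosen after the data were seen), adult values were -0.033 for CYP26B1, 0.30 for RBP4, -0.080 for CRABP1 and 0.066 for RARA, and the age value of CRABP2 was -0.20. With testosterone libraries in place of controls (also chosen after), the age value of CRABP1 was 0.057. The cause was not tested.

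Same-numbered fetal libraries had correlated deviations of 0.13, 0.01 and 0.40, and differently numbered ones -0.34 to 0.27. In the adults, same-numbered libraries had 0.05, 0.29, -0.64 and -0.18, and differently numbered ones -0.62 to 0.68. The labels do not say that the numbers pair samples, so they were not taken to, though the fetal values do not exclude it. With the number as a replicate block, 0 members passed in any testosterone comparison (ALDH1A3 adjusted p = 0.393 in fetuses), and limma passed 10 fetal genes in place of 3. DESeq2 passed 261 fetal genes. With 67 reads or more per member, counting error is small beside the spread of adult libraries, which limits these comparisons.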
